A study of Homo sapiens with 6 samples.

Results

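Collagens are the trimeric proteins of the extracellular matrix, and each chain is encoded by its own gene. The genes described here are the 44 collagen chain genes among the 19899 rows of the deposited RNA-seq table, chosen by symbol (COL, a type number, A and a chain number). They comprise 11 chains of fibrillar collagens, 6 chains of type IV collagen of basement membranes, 10 chains of FACIT collagens (fibril-associated collagens with interrupted triple helices) and 17 other chains. RNA was measured in COV434, an ovarian line that the study treats as SCCOHT, a small cell ovarian cancer that lacks BRG1, the SWI/SNF chromatin remodeling ATPase encoded by SMARCA4. Parental COV434 cells received either the control plasmid pCDNA3-neo (Control, n = 3) or the BRG1 plasmid PBJ5-BRG1 (BRG1, n = 3), and every sample also received pBABE-puro, was put on 2 to 3 µg/ml puromycin after 24 hours and was selected for 3 days. All 6 samples therefore derive from 1 cell line with transient plasmid expression, in which the amount of BRG1 per cell is set by the plasmid. The series describes the replicates as biological, numbered 1 to 3 in each group.

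The class of a collagen describes where its trimers go. Fibrillar chains (types I, II, III, V, XI, XXIV and XXVII) form the striated fibrils of connective tissue, FACIT chains sit on the surface of those fibrils, and type IV chains form the sheet-like network on which epithelial and endothelial cells rest. Procollagen chains are hydroxylated and folded in the endoplasmic reticulum, trimmed by extracellular proteases and cross-linked by lysyl oxidases, and cells bind the finished trimers through integrins and discoidin domain receptors.

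The type IV genes lie in head-to-head pairs, in which a pair of genes is read outward from neighbouring start sites. By RefSeq (GRCh38.p14) the start sites of COL4A1 and COL4A2 on chromosome 13 are 127 bases apart, those of COL4A3 and COL4A4 on chromosome 2 are 419 bases apart and those of COL4A5 and COL4A6 on chromosome X are 380 bases apart. The promoter windows below run from 250 bases before to 50 bases after the RefSeq start and are shown because the first 2 pairs rose with BRG1 and the third did not, as described further on. COL17A1, the largest rise outside type IV among chains with a mean of at least 100 counts, is shown beside them. Capitals mark GC boxes (GGGCGG) and CCAAT boxes (CCAAT), searched on both strands. The COL4A1 window (chr13:110307108-110307407, minus strand) also holds the COL4A2 start. The COL4A3 window is chr2:227164374-227164673 on the plus strand, the COL4A5 window chrX:108439588-108439887 on the plus strand and the COL17A1 window chr10:104085831-104086130 on the minus strand.
COL4A1: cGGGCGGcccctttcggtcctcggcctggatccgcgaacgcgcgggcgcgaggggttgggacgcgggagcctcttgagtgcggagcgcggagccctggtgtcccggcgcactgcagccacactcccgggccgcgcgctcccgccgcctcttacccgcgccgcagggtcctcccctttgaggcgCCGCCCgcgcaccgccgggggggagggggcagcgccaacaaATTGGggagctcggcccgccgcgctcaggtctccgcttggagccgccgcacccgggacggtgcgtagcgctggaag
COL4A3: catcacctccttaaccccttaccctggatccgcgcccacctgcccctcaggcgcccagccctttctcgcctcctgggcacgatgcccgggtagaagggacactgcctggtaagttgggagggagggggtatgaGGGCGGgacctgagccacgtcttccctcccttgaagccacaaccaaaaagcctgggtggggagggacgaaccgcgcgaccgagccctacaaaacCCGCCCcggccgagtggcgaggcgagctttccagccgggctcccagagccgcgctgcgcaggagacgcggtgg
COL4A5: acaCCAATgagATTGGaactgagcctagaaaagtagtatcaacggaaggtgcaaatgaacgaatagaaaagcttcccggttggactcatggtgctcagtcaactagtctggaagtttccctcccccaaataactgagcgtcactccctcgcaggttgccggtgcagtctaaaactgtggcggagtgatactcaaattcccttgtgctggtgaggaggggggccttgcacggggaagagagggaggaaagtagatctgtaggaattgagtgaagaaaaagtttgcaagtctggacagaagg
COL17A1: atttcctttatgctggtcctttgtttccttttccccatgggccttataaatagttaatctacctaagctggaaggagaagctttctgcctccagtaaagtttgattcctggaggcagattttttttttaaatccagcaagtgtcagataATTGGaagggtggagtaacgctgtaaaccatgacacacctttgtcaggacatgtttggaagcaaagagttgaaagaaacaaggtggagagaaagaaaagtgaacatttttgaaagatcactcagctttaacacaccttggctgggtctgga
Of the members, 32 had a promoter in the RefSeq table. The GC box was present in 18 of these (56.2%) and in 44.6% of all 27305 promoters, and the CCAAT box in 10 (31.2%) and 35.7%. The AP-1 motif (TGANTCA, N being any base, both strands), searched because the study also examines AP-1, was present in 0 of the 32 windows and in 7.76% of all promoters. The TATA box (TATAAA, both strands) was present in 5 (15.6%) and in 12.0% of all promoters. A GC box and a CCAAT box can share letters at their ends. Of the type IV windows not printed, that of COL4A2 held 1 GC box and 1 CCAAT box. The COL4A4 window held 0 of either, and the COL4A6 window held 0 GC boxes and 3 CCAAT boxes. A link between these motifs and the changes with BRG1 was not tested. These counts describe letters within 300 bases only. The study reports AP-1 motifs in BIN67 cells at sites of gained accessibility, mostly in introns and between genes, which such windows do not cover. COL9A3 and COL22A1, called higher below, had no window. The role of AP-1 in the collagen changes was not tested.

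The libraries held 29699741 to 63613710 estimated counts, and BRG1 sample 3 was the shallowest. Values below are counts divided by the DESeq2 size factor of each sample (normalised counts). SMARCA4, the transfected gene, was at 1439, 1676 and 1538 normalised counts in Control samples 1 to 3 and at 108700, 79070 and 78590 in BRG1 samples 1 to 3, plasmid transcripts included (log2 fold change 5.84, SE 0.18, DESeq2 adjusted p 5.43e-216). The markers WT1 (means of 7766 and 6376) and SALL4 (4272 and 3912) were present, while the granulosa cell genes FOXL2 and FSHR were at 3 counts or fewer in every sample. AMH and CYP19A1, which are also granulosa cell genes, were detected. AMH was at 295 ± 90.7 and 408 ± 59.8 normalised counts (SD, n = 3, DESeq2 adjusted p 0.373). CYP19A1 rose from 23.3 ± 8.03 to 322 ± 115 (SD, n = 3, log2 fold change 3.76, DESeq2 adjusted p 8.72e-20). SMARCA2, the other SWI/SNF ATPase, was at 16.4 ± 10.9 and 24.1 ± 15.9 (SD, n = 3). On the first principal component BRG1 sample 3 lay at 10.0, between the Control samples (-31.1 to -24.4) and BRG1 samples 1 and 2 (43.7 and 29.9).

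The question for the collagens was which chains changed when BRG1 was returned. With BRG1, 13 chains were called higher and 0 lower by DESeq2 at an adjusted p under 0.05, out of 40 that had an adjusted p. Over all 15991 genes with an adjusted p, 11.0% were called higher and 1.84% lower, 12.9% in either direction. In bulk RNA a change in the number of cells that express a chain and a change in its RNA per cell cannot be told apart. edgeR, run as a second test, called 11 of 34 chains higher and 0 lower, against 9.57% and 1.02% of all genes it tested, 10.6% in either direction. Every BRG1 sample lay above every Control sample for 16 of the 40 chains and below for 2, against 16.7% and 9.92% of all genes with an adjusted p. The median log2 fold change was 0.49 over the 40 chains and -0.01 over all genes. The 13 chains were COL4A1, COL4A2, COL4A3 and COL4A4 of type IV, COL5A1 and COL5A3 of the fibrillar class, COL9A3, COL16A1 and COL22A1 of the FACIT class, and COL13A1, COL15A1, COL17A1 and COL26A1. The 4 chains without an adjusted p (COL6A5, COL9A2, COL24A1 and COL28A1) did not exceed 5.08 normalised counts in any sample. Of the called chains, COL9A3, COL13A1 and COL22A1 had 3 counts or fewer in every Control sample, so they could pass the low-count filter only through the BRG1 samples. At an unadjusted p under 0.05, COL6A2 was the 1 chain lower (log2 fold change -0.31, unadjusted DESeq2 p 0.0325).

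**Figure D1:**
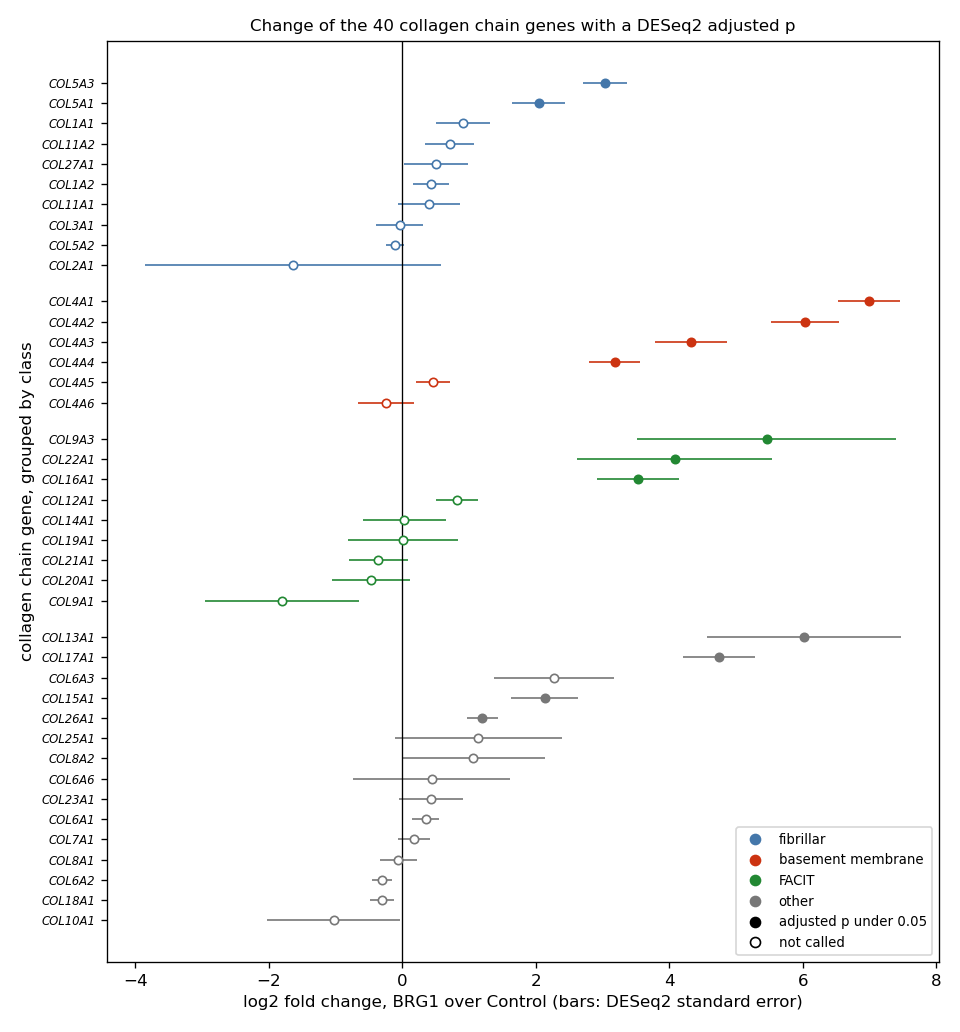
Log2 fold change (BRG1 over Control, horizontal axis) of the 40 collagen chain genes with a DESeq2 adjusted p, grouped by class. Bars are the DESeq2 standard error and filled points were called at an adjusted p under 0.05. COL4A1, COL4A2, COL4A3 and COL4A4 lie between 3.18 and 6.99, whereas COL4A5 and COL4A6 lie at 0.46 and -0.24.

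Type IV collagen held the 2 largest differences in normalised counts among the chains. COL4A1 encodes the alpha-1 chain, which with the alpha-2 chain of COL4A2 forms the network common to nearly all basement membranes. COL4A1 was at 82.8, 65.7 and 51.5 normalised counts in Control samples 1 to 3 and at 13870, 8462 and 2996 in BRG1 samples 1 to 3. The lowest BRG1 sample was thus far above the highest Control sample, and the log2 fold change was 6.99 (SE 0.46, DESeq2 adjusted p 4.24e-49, edgeR adjusted p 0.000356). COL4A2 was at 111, 63.3 and 39.4 in Control and at 7942, 4167 and 1752 in BRG1 samples, a log2 fold change of 6.03 (SE 0.51, DESeq2 adjusted p 3.85e-30, edgeR adjusted p 0.00092). For each of these chains BRG1 sample 1 was the highest and BRG1 sample 3 the lowest. Within replicate numbers 1, 2 and 3 the fold was 167, 129 and 58.2 for COL4A1 and 71.6, 65.8 and 44.5 for COL4A2. COL4A1 spans 110148963 to 110307157 on the minus strand of chromosome 13 (GENCODE release 44, GRCh38) and COL4A2 spans 110305812 to 110513209 on the plus strand, where antisense genes share 0.493% of its exonic bases. In that annotation the gene spans overlap by 1345 bases. COL4A1 shares 0.0% of its exonic bases with any other gene, so this overlap holds no exonic bases common to both.

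COL4A3 and COL4A4 encode the alpha-3 and alpha-4 chains, which together with the alpha-5 chain form the network of the glomerular basement membrane. COL4A3 was at 11.0, 18.8 and 15.9 normalised counts in Control samples and at 551, 213 and 149 in BRG1 samples (log2 fold change 4.32, SE 0.54, DESeq2 adjusted p 5.25e-14, edgeR adjusted p 0.00224). COL4A4 was at 106, 83.3 and 121 in Control samples and at 1491, 756 and 560 in BRG1 samples (log2 fold change 3.18, SE 0.38, DESeq2 adjusted p 1.7e-15, edgeR adjusted p 0.0015). The groups did not overlap for either chain, and BRG1 sample 1 was again the highest. Exons of MFF-DT cover 6.82% of the exonic bases of COL4A3, and the unstranded libraries cannot separate such reads.

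The third pair did not move in this way. COL4A5 was at 316, 245 and 454 normalised counts in Control samples and at 437, 490 and 470 in BRG1 samples, so the groups overlapped (log2 fold change 0.46, SE 0.26, DESeq2 adjusted p 0.342). COL4A6 was at 35.3, 44.6 and 31.0 in Control and at 28.3, 29.9 and 35.8 in BRG1 samples (log2 fold change -0.24, SE 0.42, DESeq2 adjusted p 0.858). Without Control replicate 3 COL4A5 was called higher (log2 fold change 0.73, DESeq2 adjusted p 0.0173). Neither gene of the X-linked pair was thus called with all samples.

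**Figure D2:**
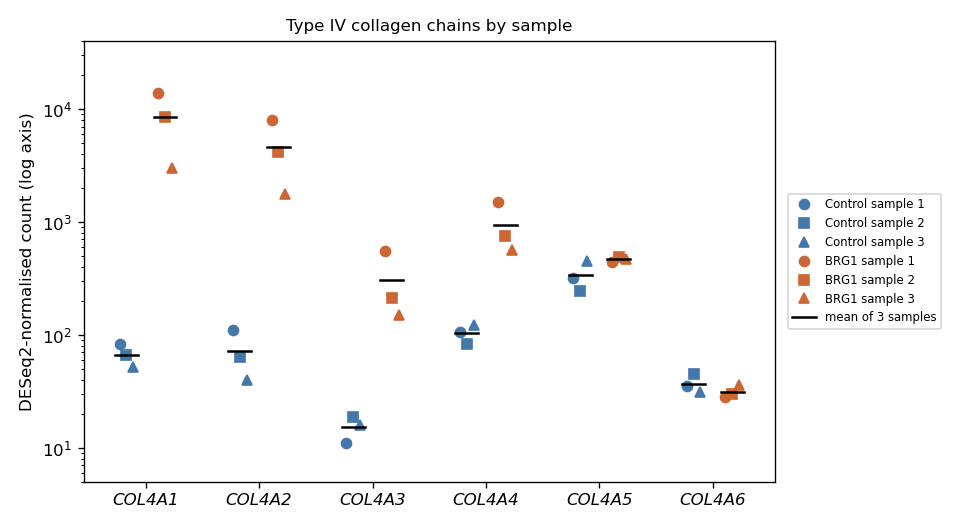
DESeq2-normalised counts (log axis) of the 6 type IV collagen chains. Points are samples, with a marker shape for each replicate number, and bars are means of 3 samples. COL4A1 runs from 51.5 to 82.8 in Control and from 2996 to 13870 in BRG1 samples, and BRG1 sample 1 is the highest in COL4A1 to COL4A4.

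These type IV calls did not rest on 1 library. When each sample was left out in turn, the log2 fold change ran from 6.43 to 7.40 for COL4A1, from 5.39 to 6.49 for COL4A2, from 3.58 to 4.65 for COL4A3 and from 2.67 to 3.44 for COL4A4, and each stayed called. The lowest of each range came without BRG1 replicate 1. In the paired fits, which block on replicate number, they were also called, with edgeR adjusted p-values of 5.77e-06, 8.86e-07, 0.000815 and 0.000377.

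Of 10 fibrillar chains with an adjusted p, 2 were called higher, beside 11.0% of all genes. COL5A1 and COL5A3 encode the alpha-1 and alpha-3 chains of type V collagen, a minor fibril component that sets fibril diameter. COL5A1 was at 85.3, 62.1 and 84.0 normalised counts in Control samples and at 505, 244 and 203 in BRG1 samples (log2 fold change 2.04, SE 0.40, DESeq2 adjusted p 4.48e-06, edgeR adjusted p 0.0117). COL5A3 was at 25.6, 24.6 and 36.3 in Control and at 275, 264 and 181 in BRG1 samples (log2 fold change 3.04, SE 0.33, DESeq2 adjusted p 3.33e-18, edgeR adjusted p 0.000708). Neither chain overlapped between groups. COL5A2, the alpha-2 chain of the same collagen, was not called and was at 13120, 11050 and 12390 in Control samples and 11790, 10370 and 11710 in BRG1 samples (log2 fold change -0.11, SE 0.14, DESeq2 adjusted p 0.773).

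The chains of types I and III, the main fibrillar collagens of skin, bone and vessels, were not called with all samples. COL1A1 was at 102, 42.2 and 59.1 normalised counts in Control samples and at 126, 156 and 97.0 in BRG1 samples (log2 fold change 0.91, SE 0.41, DESeq2 adjusted p 0.151). Without Control replicate 1, the highest of its group, COL1A1 was called higher (log2 fold change 1.31, DESeq2 adjusted p 0.0128). COL1A2 was at 178, 304 and 276 in Control and at 288, 350 and 385 in BRG1 samples (log2 fold change 0.43, SE 0.27, DESeq2 adjusted p 0.402). COL3A1 was at 3987, 5184 and 7528 in Control and at 3176, 5065 and 7981 in BRG1 samples (log2 fold change -0.04, SE 0.35, DESeq2 adjusted p 0.974). In COL3A1 the samples numbered 1 were the lowest and those numbered 3 the highest in each group, so the spread between numbers exceeded the difference between groups. The COL3A1 gene lies 19152 bases from COL5A2, which points toward it on chromosome 2, and these neighbours were among the 3 most abundant chains in Control per kilobase.

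Type XI and type XXVII chains, known from cartilage, were also not called. COL11A2 was at 212, 142 and 298 normalised counts in Control samples and at 412, 223 and 434 in BRG1 samples (log2 fold change 0.71, SE 0.37, DESeq2 adjusted p 0.252). It was higher with BRG1 within each replicate number, by 1.94, 1.57 and 1.46 times, and was called higher in the paired fits (DESeq2 adjusted p 0.0119, edgeR adjusted p 0.0266). COL27A1 was at 335, 98.5 and 164 in Control and at 395, 164 and 294 in BRG1 samples (log2 fold change 0.51, SE 0.48, DESeq2 adjusted p 0.662). COL11A1 lay between 48.7 and 151 over all samples, while COL2A1, the cartilage collagen chain, reached at most 9.09 and COL24A1 at most 1.51.

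Of 9 FACIT chains with an adjusted p, DESeq2 called 3 higher, beside 11.0% of all genes, and edgeR called 1 of the 6 it tested, beside 9.57%. COL16A1, a chain found near fibrils and basement membranes, was at 7.31, 10.6 and 3.03 normalised counts in Control samples and at 102, 81.4 and 47.8 in BRG1 samples (log2 fold change 3.53, SE 0.61, DESeq2 adjusted p 1.29e-07, edgeR adjusted p 0.00447). COL9A3, a chain of cartilage type IX collagen, was at 0 in each Control sample and at 12.3, 10.8 and 1.49 in BRG1 samples (DESeq2 adjusted p 0.0398). Its BRG1 mean was at least 2.61-fold higher against a floor of 3 counts per library. BRG1 sample 3 alone lay under the floor of its own library (4.48 normalised counts). COL22A1, a chain of tissue junctions, was at 1.22, 1.17 and 0 in Control and at 22.5, 7.48 and 5.97 in BRG1 samples, at least 3.81-fold higher (DESeq2 adjusted p 0.043). Neither was tested by edgeR, whose filter removed them, and their DESeq2 calls were lost with the replicate block (adjusted p 0.12 and 0.0729) and in 5 of the 6 fits that left out a sample, BRG1 sample 3 being the exception.

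Among the other FACIT chains, COL12A1 and COL21A1 had the higher counts. COL12A1, which coats fibrils of tendon and dense connective tissue, was at 127, 164 and 248 normalised counts in Control samples and at 263, 376 and 321 in BRG1 samples. The groups did not overlap, but the chain was not called (log2 fold change 0.82, SE 0.31, DESeq2 adjusted p 0.0602), whereas the paired fits called it (DESeq2 adjusted p 0.0105, edgeR adjusted p 0.0299), as did the fit without Control replicate 3 (log2 fold change 1.13, DESeq2 adjusted p 0.00218). COL21A1 was at 1065, 1473 and 2735 in Control and at 738, 1183 and 2194 in BRG1 samples (log2 fold change -0.36, SE 0.44, DESeq2 adjusted p 0.767). BRG1 was below Control within each replicate number, and the paired fits called COL21A1 lower, by DESeq2 with a log2 fold change of -0.39 (adjusted p 0.0136) and by edgeR (adjusted p 0.0285). COL9A1, COL14A1, COL19A1 and COL20A1 were not called and lay between 1.45 and 89.6 in all samples.

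Of the 4 transmembrane collagen chains 2 were called higher by both tests, beside 11.0% (DESeq2) and 9.57% (edgeR) of all genes. COL17A1 encodes the hemidesmosome collagen that anchors basal epithelial cells to the basement membrane, and COL13A1 encodes a chain of cell-matrix junctions. COL17A1 was at 18.3, 5.86 and 27.3 normalised counts in Control samples and at 779, 351 and 270 in BRG1 samples, with no overlap (log2 fold change 4.74, SE 0.54, DESeq2 adjusted p 1.42e-16, edgeR adjusted p 0.00202). Within replicate numbers its fold was 42.6, 59.9 and 9.91. COL13A1 was at 0, 0 and 0.757 in Control and at 39.2, 18.3 and 13.4 in BRG1 samples, at least 7.51-fold higher (DESeq2 adjusted p 0.000442, edgeR adjusted p 0.00463). The other transmembrane chains, COL23A1 and COL25A1, were not called and did not exceed 46.3 in any sample.

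The multiplexins COL15A1 and COL18A1, which bind basement membranes, differed from each other. COL15A1 was at 8.53, 12.9 and 9.84 normalised counts in Control samples and at 52.2, 40.7 and 43.3 in BRG1 samples (log2 fold change 2.13, SE 0.50, DESeq2 adjusted p 0.000305, edgeR adjusted p 0.00789). COL18A1, whose C-terminal fragment is endostatin, was at 2481, 1941 and 2614 in Control and at 1710, 1888 and 2066 in BRG1 samples (log2 fold change -0.31, SE 0.18, DESeq2 adjusted p 0.325), and exons of SLC19A1 cover 18.5% of its exonic bases. COL26A1 was at 263, 191 and 279 in Control and at 646, 557 and 482 in BRG1 samples (log2 fold change 1.20, SE 0.23, DESeq2 adjusted p 3.65e-06, edgeR adjusted p 0.0101). Its groups did not overlap.

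Type VI collagen forms beaded filaments from alpha-1, alpha-2 and further chains. COL6A1 was at 381, 274 and 335 normalised counts in Control samples and at 425, 391 and 448 in BRG1 samples (log2 fold change 0.35, SE 0.20, DESeq2 adjusted p 0.333). COL6A2 was at 6444, 6767 and 7452 in Control and at 4922, 5638 and 6069 in BRG1 samples (log2 fold change -0.31, SE 0.15, DESeq2 adjusted p 0.177). COL6A2 lay lower in every BRG1 sample than in any Control sample, a pattern that 9.92% of all genes with an adjusted p share, and the paired fits called it lower (DESeq2 log2 fold change -0.32 and adjusted p 0.00543, edgeR adjusted p 0.0287). COL6A3 stayed at 29.9 or fewer in every sample (log2 fold change 2.27, SE 0.90, DESeq2 adjusted p 0.0801), COL6A6 at 8.96 or fewer and COL6A5 at 2.27 or fewer.

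COL7A1, which makes the anchoring fibrils beneath epithelia, was at 665, 721 and 863 normalised counts in Control samples and at 868, 627 and 1036 in BRG1 samples (log2 fold change 0.17, SE 0.24, DESeq2 adjusted p 0.814). COL8A1, a short-chain network collagen of vessel walls and the cornea, was at 2155, 2127 and 3743 in Control and at 2228, 2211 and 3273 in BRG1 samples (log2 fold change -0.06, SE 0.28, DESeq2 adjusted p 0.957). Groups overlapped for both, and in COL8A1 the samples numbered 3 were the highest of each group. COL8A2, COL10A1 and COL28A1 did not exceed 21.9 in any sample.

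**Figure D3:**
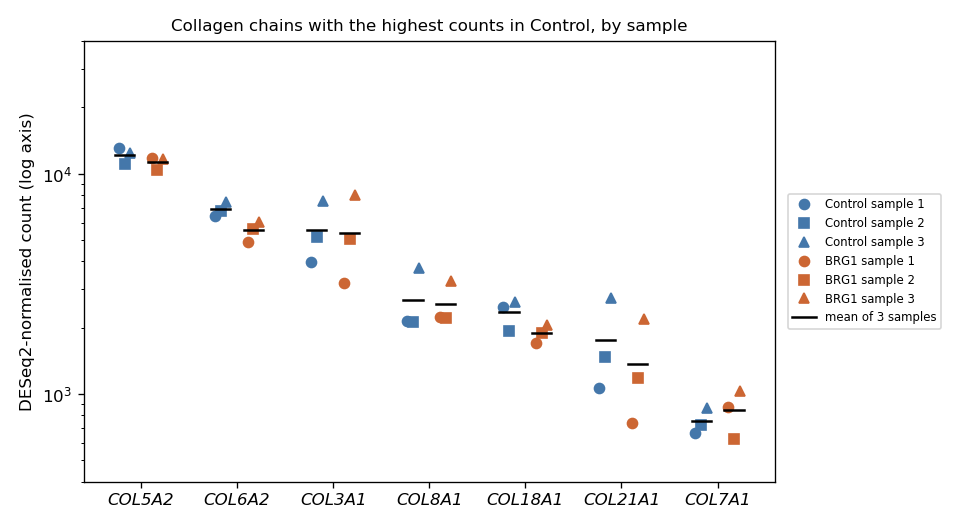
DESeq2-normalised counts (log axis) of 7 abundant collagen chains by sample. Marker shapes are replicate numbers and bars are means of 3 samples. COL3A1 and COL21A1 are highest in the samples numbered 3 of each group, and COL5A2 lies between 10370 and 13120 in all 6 samples.

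The order of levels was set by few chains. Levels between genes were compared per kilobase of the MANE Select transcript, the reference transcript of each gene. In Control the highest mean was that of COL6A2 at 2000 normalised counts per kilobase, followed by COL5A2 at 1790 and COL3A1 at 1010. In BRG1 samples COL5A2 was at 1650, COL6A2 at 1610, COL4A1 at 1290, COL3A1 at 985 and COL4A2 at 717 per kilobase. COL4A1 moved from rank 19 to rank 3 of the 44 chains and COL4A2 from rank 17 to rank 5, although COL4A1 in BRG1 sample 3 was well below its mean. Over all 6 samples 21 chains had a mean of at least 100 normalised counts, 12 had a mean from 10 to 100 and 11 had a mean under 10.

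Summed over all members, collagen transcripts took 703, 662 and 863 CPM (counts scaled to equal library totals) in Control samples 1 to 3 and 1180, 986 and 991 in BRG1 samples 1 to 3. Control averaged 743 ± 106 and BRG1 1050 ± 109 CPM (SD, n = 3), 1.42 times higher. Type IV chains were at 14.3, 11.0 and 15.3 CPM in Control and 527, 312 and 135 in BRG1 samples. Fibrillar chains summed to 400 ± 46.4 and 409 ± 64.6 CPM and FACIT chains to 43.9 ± 20.6 and 42.0 ± 18.1 (SD, n = 3), within the spread between samples. As a share of collagen counts per kilobase, type IV chains were at 1.37% ± 0.164 in Control and at 25.6% ± 14.3 with BRG1 (SD, n = 3), with 39.4% in BRG1 sample 1 and 10.9% in BRG1 sample 3. These sums were not tested, because the members had been chosen with results of these data known.

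**Figure D4:**
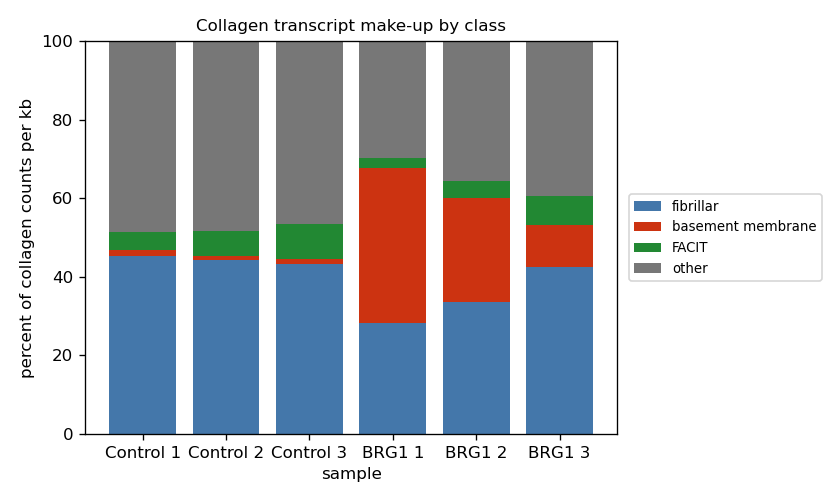
Share of collagen normalised counts per kilobase in each class (vertical axis, percent) for each of the 6 samples. Basement membrane (type IV) chains make up 1.23% to 1.55% in Control samples and 39.4%, 26.6% and 10.9% in BRG1 samples 1 to 3.

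Chains that assemble together did not move together in every case. The log2 ratio of COL4A1 to COL4A2 counts was 0.01 ± 0.40 without and 0.87 ± 0.14 with BRG1 (SD, n = 3), and the groups did not overlap. The ratio of COL5A1 to COL5A2 was -7.30 ± 0.14 in Control and -5.27 ± 0.66 in BRG1 samples, a difference of 2.04 without overlap. The ratio of COL6A1 to COL6A2 was -4.39 ± 0.28 and -3.71 ± 0.16 without overlap. That of COL6A3 to COL6A1 was -6.30 ± 0.65 and -4.61 ± 0.81, and its difference of 1.70 rested on few COL6A3 counts: it was 0.97 with 5 counts added to each chain in place of 0.5, and ran from 1.24 (without BRG1 replicate 2) to 2.05 (without Control replicate 1). COL1A1 over COL1A2 (-1.95 ± 1.04 and -1.44 ± 0.46), COL4A5 over COL4A6 (3.15 ± 0.70 and 3.89 ± 0.17) and COL11A1 over COL11A2 (-1.46 ± 0.57 and -1.72 ± 0.28) overlapped between groups. The ratio of COL4A3 to COL4A4, added after the data had been seen, was -2.74 ± 0.58 in Control and -1.72 ± 0.25 in BRG1 samples, without overlap. With 3 samples against 3 an exact permutation test cannot go below 0.1, and none was run on these ratios.

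**Figure D5:**
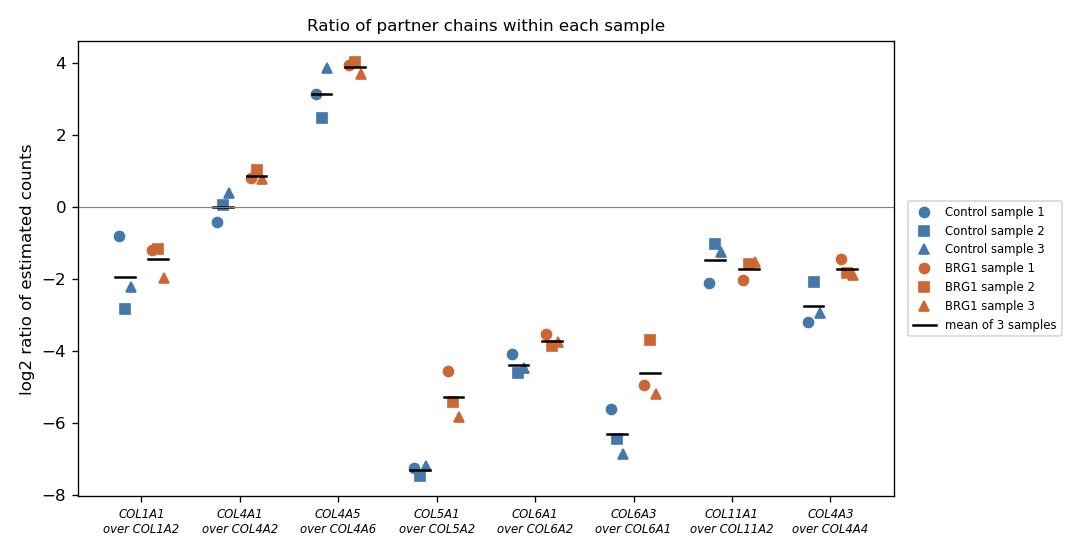
Log2 ratio of the estimated counts of partner chains within each sample (vertical axis, not corrected for length, so pairs are not comparable with each other). Marker shapes are replicate numbers and bars are means of 3 samples. COL5A1 over COL5A2 moves from -7.30 in Control to -5.27 in BRG1 samples, and COL1A1 over COL1A2 overlaps between groups.

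The machinery that makes collagen was compared with the chains. Of 24 genes for folding and modification, DESeq2 and edgeR each called 3 higher and 0 lower, a share near the 11.0% and 9.57% of all genes called higher, with a median log2 fold change of 0.08. P4HA3, a prolyl 4-hydroxylase subunit, rose from 4.46 ± 1.41 to 47.3 ± 26.7 normalised counts (SD, n = 3, log2 fold change 3.44). P3H2, a prolyl 3-hydroxylase known for modifying type IV collagen, rose from 12.6 ± 2.95 to 58.9 ± 12.4 (SD, n = 3, log2 fold change 2.20). SERPINH1, the collagen chaperone HSP47, rose from 20400 ± 3640 to 31140 ± 1610 (SD, n = 3, log2 fold change 0.61, edgeR adjusted p 0.0315). The abundant P4HB, PPIB and FKBP10 had log2 fold changes of 0.00, -0.01 and 0.04 and were not called. In the paired DESeq2 fit 5 genes were called higher, with P4HA2 and PLOD3 added, and 2 lower, TMEM38B and FKBP14, these 4 being named after their values were seen.

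Of 15 genes for processing and cross-linking, 7 were called higher and 0 lower by both tests, beside 11.0% (DESeq2) and 9.57% (edgeR) of all genes called higher, and the median log2 fold change was 1.02. TGM2, a transglutaminase that cross-links matrix proteins, rose from 145 ± 65.6 to 30900 ± 22200 normalised counts (SD, n = 3, log2 fold change 7.74, edgeR adjusted p 0.000398). BMP1, the procollagen C-proteinase, rose from 793 ± 135 to 5880 ± 2320 (SD, n = 3, log2 fold change 2.89, edgeR adjusted p 0.000642). Among lysyl oxidase-like genes LOXL1 was at 3 counts or fewer in Control and at least 24.2-fold higher with BRG1. LOXL1 could thus pass the low-count filter only through the BRG1 samples. LOXL4 had a log2 fold change of 4.73. The other called genes were ADAMTS14, TLL2 and LOXL2. LOX and PXDN were picked by function with their values known, and neither was called (log2 fold changes 0.17 and 1.02, DESeq2 adjusted p 0.742 and 0.141). PXDN is the peroxidase that cross-links type IV collagen.

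For collagen receptors DESeq2 called 6 of 10 higher and edgeR 6 of 9, with 0 lower, beside 11.0% and 9.57% of all genes, and the median log2 fold change was 1.18. ITGA11 and ITGA10, integrin alpha subunits that bind collagen, had log2 fold changes of 4.08 and 3.59, ITGA2 of 1.57 and the discoidin domain receptor DDR2 of 2.48. ITGA1 and DDR1 were the other called genes. ITGB1, the beta subunit that these integrin alpha subunits share, was at 28180 ± 873 without and 27360 ± 2450 with BRG1 (SD, n = 3, DESeq2 adjusted p 0.931). MRC2, an endocytic collagen receptor, was at 2551 ± 886 and 4069 ± 381 (SD, n = 3) and was not called (DESeq2 adjusted p 0.075), whereas the paired fits called it higher (DESeq2 adjusted p 3.47e-05, edgeR adjusted p 0.00839).

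Of 11 collagen-degrading genes with an adjusted p, 2 were called higher and 0 lower by both tests (median log2 fold change 0.41), a count close to the 11.0% of all genes called higher. MMP2, a gelatinase that also cleaves type IV collagen, rose from 30.6 ± 7.99 to 1625 ± 575 normalised counts (SD, n = 3, log2 fold change 5.75), and the lysosomal protease CTSL had a log2 fold change of 0.61. CTSB was at 9143 ± 387 and 12940 ± 2790 (SD, n = 3) and was not called (DESeq2 adjusted p 0.06), though it was with the replicate block (DESeq2 adjusted p 0.00367, edgeR adjusted p 0.0331). PREP and PEPD, which act on proline peptides, were not called. Of 6 fibril-associated proteoglycans with an adjusted p, 1 was called higher and 0 lower (median log2 fold change -0.14). That count was close to the 11.0% of all genes called higher. The called gene was PRELP, a proteoglycan known at basement membranes, which rose from 6.78 ± 5.89 to 464 ± 249 (SD, n = 3, log2 fold change 6.08, edgeR adjusted p 0.0018).

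Markers of other cell types also moved with BRG1. Of 14 fibroblast markers, 12 had an adjusted p and 4 were called higher (MFAP5, PDGFRA, PDGFRB and S100A4), beside 11.0% of all genes. The summed normalised counts of the list ran from 4463 to 5434 in Control and from 7473 to 15490 in BRG1 samples, and without MFAP5 from 4049 to 4960 and from 2748 to 4510. POSTN was at 2590 ± 303 and 1732 ± 587 (SD, n = 3) without overlap and was not called (DESeq2 adjusted p 0.187), but the paired fits called it lower (DESeq2 adjusted p 0.00093, edgeR adjusted p 0.0228). FBLN1 was called lower in the paired DESeq2 fit (adjusted p 0.0433) and not in the paired edgeR fit (adjusted p 0.0629). The proteoglycans DCN (381 ± 11.4 and 311 ± 90.4) and LUM (568 ± 71.5 and 419 ± 48.5, SD, n = 3) were not called, and DPT, PI16 and TCF21 were near 0 in Control.

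Of 10 endothelial markers 4 were called higher (CDH5, TEK, TIE1 and VWF), beside 11.0% of all genes. CDH5 was at 0, 0 and 1.51 normalised counts in Control samples and at 272, 114 and 43.3 in BRG1 samples. With 3 counts or fewer in every Control sample, CDH5 could pass the low-count filter only through the BRG1 samples. The endothelial list summed to 1753 to 2685 normalised counts in Control and 6547 to 6961 in BRG1 samples, and without VWF to 1727 to 2658 and 2891 to 3348. KDR, at 1785 ± 437 and 1961 ± 497 (SD, n = 3), was not called (DESeq2 adjusted p 0.882), nor was PECAM1 at 10.6 ± 11.9 and 19.0 ± 16.1 (SD, n = 3). Of 10 leukocyte markers, 5 had an adjusted p and 1, LYZ, was called higher, beside 11.0% of all genes. LYZ was at 2.44, 0 and 0.757 normalised counts in Control samples and at 13.8, 20.8 and 22.4 in BRG1 samples. LYZ, too, could pass the low-count filter only through the BRG1 samples. The leukocyte list summed to 1858 to 2872 normalised counts in Control and 2445 to 3942 in BRG1 samples. These ranges overlapped, and CD68 and PTPRC held most of the counts. CD68 was at 1736 ± 700 and 2757 ± 812 (SD, n = 3) and was not called (DESeq2 adjusted p 0.217), but was higher in the paired fits (DESeq2 adjusted p 0.00132, edgeR adjusted p 0.0343). PTPRC, a marker of leukocytes in general, was present at 505 ± 167 and 520 ± 185 (SD, n = 3) and was not called (DESeq2 adjusted p 0.977). CD3D, CD3E and MS4A1 were at or near 0. Sums without the leading gene were added after seeing the data. The part of these genes in the collagen results was not tested.

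Samples of the same replicate number deviated together, so the fits were repeated with that number as a block. With the number as a block, DESeq2 and edgeR each called 13 chains higher and 2 lower, the lower chains being COL6A2 and COL21A1, against 13.4% and 6.62% of all genes for DESeq2 (20.0% in either direction) and 13.7% and 5.68% for edgeR (19.4% in either direction). Both differences were small, at -0.32 and -0.39 on the log2 scale in DESeq2, beside 6.76 for COL4A1 in the same fit. The 13 higher chains were not the same set as without the block. COL11A2 and COL12A1 were added with both tools, and COL9A3 and COL22A1 lost their DESeq2 calls.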

How the data were processed

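Per the labels and the study's methods, mRNA (500 ng RNA input) was made into unstranded libraries and sequenced as pairs of 78 bases. The authors aligned reads to hg38 with STAR (version 2.5.3a), and Salmon (version 0.8.2) and tximport gave gene values. Each deposited value is an estimated count for a gene symbol, which the authors scaled from TPM by average transcript length and library size (lengthScaledTPM). These were rounded to whole numbers here.

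Of the 19899 rows, 18096 held a rounded count in some sample. DESeq2 (version 1.42.0, R 4.3.3), the tool of the study's methods, compared 3 BRG1 with 3 Control samples by its Wald test over the whole table with no covariate. Calls needed a Benjamini-Hochberg adjusted p under 0.05. edgeR (version 4.0.16, quasi-likelihood, TMM factors) was the second test. In tests on simulated data, false calls by DESeq2 exceeded its threshold and were fewer with edgeR. The simulated counts used the spread that DESeq2 estimated and were drawn independently for each sample, without an effect of replicate number. They therefore do not model samples that deviate together by number. Alternatives were the replicate number as a block, TMM factors, a filter of 10 counts in 3 samples, no independent filtering, an adjusted p under 0.01 and leaving out each sample. Chain ratios used estimated counts plus 0.5, with 5 as the alternative. P-values test the difference between groups against the spread between these samples, which both tools estimate for each gene with help from the other genes. Totals of 29699741 to 63613710 estimated counts set the counting error, and a group with at most 3 counts in every sample was put at a floor of 3 counts per library. Folds given as "at least" set the mean of the BRG1 samples against the mean Control floor, and do not hold for each sample.

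Replicate numbers come from the labels, which name no shared day or batch. Deviations from the group means correlated at 0.569, 0.61 and 0.643 between samples of the same number (Pearson r across 11686 genes, which are not independent replicates) and at 0.119 or less between other numbers, so the numbers were taken to pair the samples.

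The members and lists were chosen with earlier results of these data known. Values in every sample are given for chains with a mean of at least 100 normalised counts or called by either test. In each pathway list up to 4 called genes with the largest change and up to 3 uncalled genes with a mean of at least 1000 are described, and further genes were named after their values were seen. Positions are from GENCODE release 44 and promoters from RefSeq, both on GRCh38. A planned description of protein repeats was not run.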

Additional observations from a re-analysis of the deposited data

How the results depend on the processing

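The number of collagen chains called higher (13) ran from 10, with the filter of 10 counts in 3 samples, to 13 over the alternatives run, and type IV chains called higher were 4, or 5 without Control replicate 3, where COL4A5 was added. With the replicate block the chains called lower (0) were 2 with DESeq2 and 2 with edgeR, in each case 1 FACIT chain and 1 other chain. Beside the changes given in the report, the block changed no other call among the chains. FACIT chains called higher (3) were 1 with edgeR, 1 with the filter and 1 at an adjusted p under 0.01, and ran from 1 (without Control replicate 1 or 2, or BRG1 replicate 1 or 2) to 3 when a sample was left out. In the folding list the block gave 5 higher with DESeq2 and 2 lower with either tool, and TMM factors gave 1 lower (TMEM38B). All genes called lower (294) were 146 with edgeR, 130 at an adjusted p under 0.01, 1035 with the DESeq2 block and 809 with the edgeR block. Leaving out a sample gave between 117 (BRG1 replicate 2 out) and 596 (BRG1 replicate 3 out). Processing genes called lower then ran from 0 to 1, proteoglycans called lower from 0 to 1 and proteoglycans called higher from 1 to 2.

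Uncalled chains with differences near 0 changed sign when a sample was left out and stayed uncalled. The log2 fold change of COL3A1 ran from -0.43 to 0.24, of COL8A1 from -0.27 to 0.26, of COL21A1 from -0.87 to 0.11 and of COL7A1 from 0.00 to 0.34. The share of counts in collagen transcripts ran from 1.33 to 1.54 times Control when a sample was left out and was 1.44 times as the mean within replicate numbers, an alternative added after seeing the data. The cause of these changes was not tested. At this depth 10 of the 44 chains had too few counts for edgeR's filter.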
